A study of Mus musculus with 2 samples.

Results

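The genes described here mark pluripotent cells and germ cells: 32 genes, of 27665 genes or named transcripts on the array, were taken by name as regulators and markers of the pluripotent state or as genes of the germ line, and all 32 had at least 1 probe (45 probes in all). The reprogramming factors c-Myc, Klf4, Oct3/4 and Sox2 were left out. Their values come from 2 mouse lines of strain 129/Ola that both descend from N31, a neural progenitor line made from induced pluripotent stem cells. N31 carries those 4 factors under the control of doxycycline, so both lines do. One line received an EGFP construct (a green fluorescent protein, the control), the other a Pax6 construct (a paired-box transcription factor of eye and forebrain), each driven by the CAG promoter and brought in with the Tol2 transposon. Both were sampled 24 h after doxycycline, when only the EGFP line had visibly changed its shape, and 1 array was hybridised per line. The labels do not say whether each line is a single clone, and cells without doxycycline were not analysed here, so the values compare the lines with each other and do not show what doxycycline changed. The comparison asks how far the lines differed in genes of the pluripotent state at a time when the study examined the switch from mesenchymal to epithelial features.

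Pluripotency rests on a network of transcription factors, with Oct3/4, Sox2 and Nanog at its centre and Esrrb, Tbx3, Tfcp2l1, Nr5a2 and Sall4 around it. Cells that are being reprogrammed usually lose somatic features and gain epithelial ones first, and switch on this endogenous network late. Germ cells share part of the network and later express genes of meiosis and of the small RNA pathway that silences transposons, many of which are kept silent by DNA methylation in somatic cells.

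Short promoter stretches of the genes the results turn on are shown first. They come from the RefSeq promoter table of mouse build GRCm38.p6, which held 22 of the 32 genes. The table had no entry for Dppa2, Dppa3, Dppa4, Dppa5a, Fbxo15, Piwil2, Rif1, Sall4, Tbx3 and Tdh. The 250 bases before each start site were searched on both strands for TTTGCAT, the core of the octamer that Oct3/4 recognises, and for CACGTG, an E-box bound by Max and its partners in many germ cell genes. These letters do not overlap each other in any stretch shown. The octamer core lay before the start sites of Zfp42 and Nanog and of no other of the 22 genes, and 4.65% of the 27025 genes in the table held it. Both stretches are printed 5′ to 3′ on the strand of the gene, with the match in capitals, because Zfp42 is the called member and Nanog the core factor among the 22 genes that hold it. The Zfp42 stretch is chr8:43307148-43307234 on the minus strand, with its match beginning 185 bases before the start. The Nanog stretch is chr6:122707374-122707460 on the plus strand, with its match 151 or 75 bases before the start, depending on which of its annotated start sites is taken.
Zfp42: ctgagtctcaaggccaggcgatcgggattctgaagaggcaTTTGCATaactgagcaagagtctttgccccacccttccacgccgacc
Nanog: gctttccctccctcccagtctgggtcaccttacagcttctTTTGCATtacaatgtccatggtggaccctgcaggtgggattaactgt

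The E-box was found in 5 of the 9 germ cell genes in the table and in 6.86% of all genes there, and is shown because it is what these germ cell genes have in common. None of the other 13 genes held it. The stretches are chr19:56826158-56826208 (plus strand) for Tdrd1, chr13:112652311-112652379 (minus) for Ddx4, chr1:166238922-166238994 (minus) for Mael, chr3:102936149-102936234 (minus) for Sycp1 and chr10:88459504-88459586 (plus) for Sycp3, which held 2 matches. Capitals again mark the match. A match describes the letters and shows neither binding nor a cause.
Tdrd1: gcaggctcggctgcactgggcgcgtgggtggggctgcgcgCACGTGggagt
Ddx4: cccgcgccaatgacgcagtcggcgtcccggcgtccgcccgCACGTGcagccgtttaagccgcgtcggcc
Mael: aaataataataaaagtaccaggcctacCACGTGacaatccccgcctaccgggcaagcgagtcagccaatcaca
Sycp1: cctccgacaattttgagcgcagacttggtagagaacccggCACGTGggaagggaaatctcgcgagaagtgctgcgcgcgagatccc
Sycp3: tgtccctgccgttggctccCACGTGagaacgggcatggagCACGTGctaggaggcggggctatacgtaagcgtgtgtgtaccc

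Most of these genes gave little or no signal in either line. The scanner software calls a spot well above background by its own rule, and 19 of the 32 genes met it on at least 1 array (59.4%), against 66.9% of all genes. The share was 8 of 10 for the transcription factors of pluripotency, 6 of 10 for other genes enriched in embryonic stem cells, 2 of 2 for the chromatin proteins Rif1 and Trim28, and 3 of 10 for the germ cell genes. Of the 19, 17 were measured on both arrays, Tdrd1 in the EGFP line alone and Esrrb in the Pax6 line alone. The brightest probes of the other 13 read processed signals (background-subtracted brightness, in scanner units) of 2.12 to 13.3 (EGFP) and 2.00 to 11.9 (Pax6). Values not called well above background have no order and are not compared. The lowest signal called well above background was 10.3 (EGFP array) and 9.30 (Pax6 array). The 153 negative control spots, which match no mouse transcript, had a median of 2.38 and 2.18, but a single spot reached 35.3 on the EGFP array and 2 spots were called above background on the Pax6 array, the highest at 24.6. By this measure 12 of the 19 genes were brighter than every negative control spot on both arrays. The other 7, which were Nanog, Esrrb, Tfcp2l1, Fbxo15, Tdh, Alpl and Tdrd1, were not, with at most 1 control spot (EGFP) or 2 (Pax6) as bright.

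**Figure D1:**
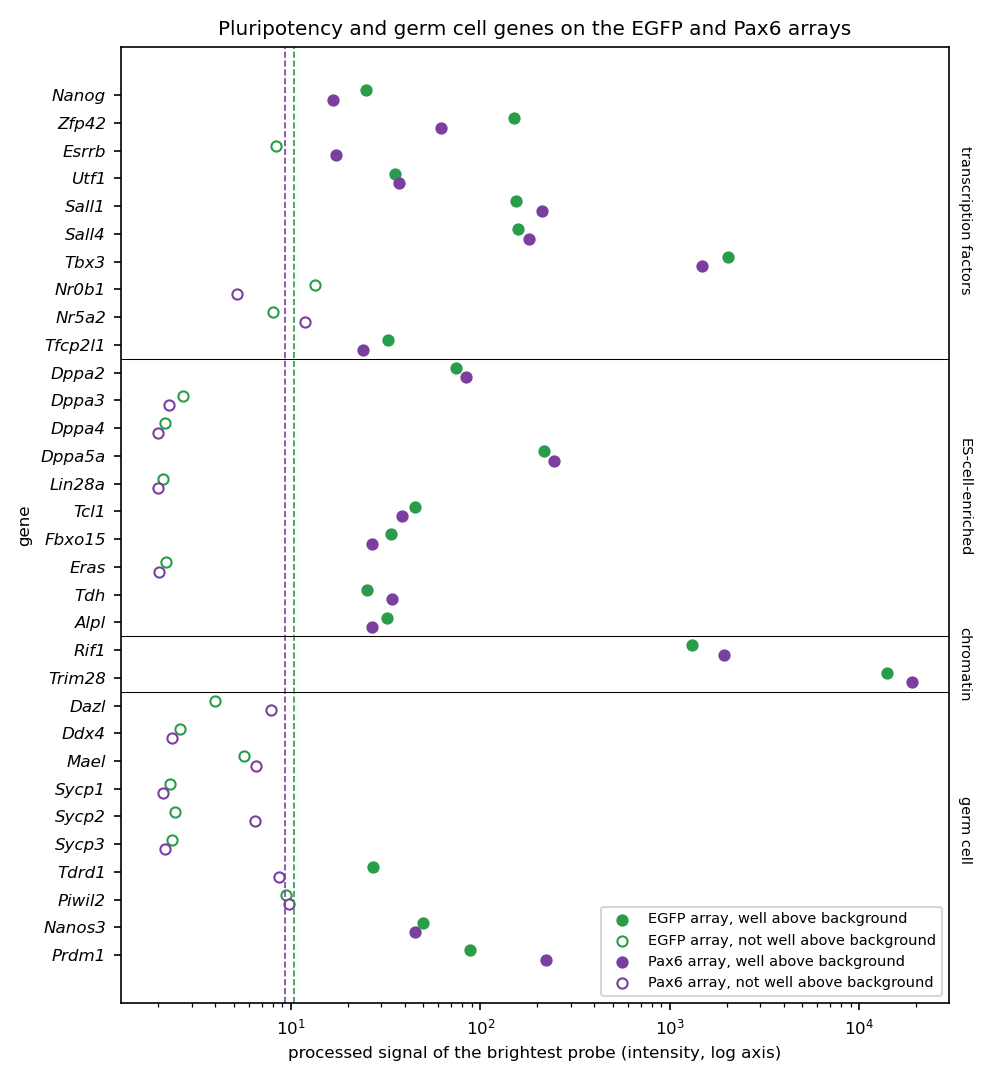
Processed signal of the brightest probe of each of the 32 genes (intensity, log axis) on the EGFP array (green) and the Pax6 array (purple), in 4 groups by role. Filled points were well above background, open points were not, and the dashed lines mark the lowest signal called above background (10.3 for EGFP, 9.30 for Pax6); 13 genes are open on both arrays, 7 of them germ cell genes. Levels of different genes are read by different probes and are not comparable with each other.

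Differences are given as log2, Pax6 minus EGFP, after the 75th percentile of each array was subtracted, and an error after ± is the software's measurement error of that difference. The percentile was 854 for EGFP and 991 for Pax6, so equal signals correspond to a slightly negative difference. The error does not cover the variation between cultures, for which there is no replicate, so no p-value is given. Each of the 45 probes had 1 spot, so no spread over spots was available for them. On probes with replicate spots the difference had a median SD of 0.07. A difference of at least 2-fold was counted, and "higher" and "lower" describe these 2 arrays.

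Of the 19 genes, 2 were at least 2-fold lower on the Pax6 array (Zfp42 and Tdrd1), 1 was at least 2-fold higher (Prdm1) and 16 were within 2-fold. Over all 18517 genes above background on at least 1 array, 2.46% were at least 2-fold lower and 2.39% higher, 4.85% in either direction. Most of the 19 were dim: 16 had a mean signal under 300 over both arrays, and among the 7966 genes that dim, 4.51% were at least 2-fold lower and 3.93% higher. Only 1 or 2 genes separate these counts from the background shares, so they are not read as a property of the gene set. In bulk RNA, fewer cells that express a gene and less RNA per cell cannot be told apart. The 442 higher and 456 lower genes became 527 and 362 (59.3% higher) when arrays were scaled by their medians, and 173 and 107 (61.8% higher) with normexp, a model-based background correction. These counts and the medians that follow describe only the genes that were above background. The median difference of the 19 genes was -0.14, with 13 of 19 below 0, while the median of all genes was -0.01, with 51.4% below 0. Among the 16 dim genes the median was -0.25 and 12 were below 0, against a median of -0.05 and 54.8% below 0 for all genes that dim. At a mean signal under 50 the median of all 4433 genes was -0.01, and -0.13 over those of them measured on both arrays, while it was 0.01 for the 7789 brightest genes. Genes above background on 1 array only leaned the other way, with 1034 on the Pax6 array and 327 on the EGFP array. The part of brightness in the members' median was not tested.

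**Figure D2:**
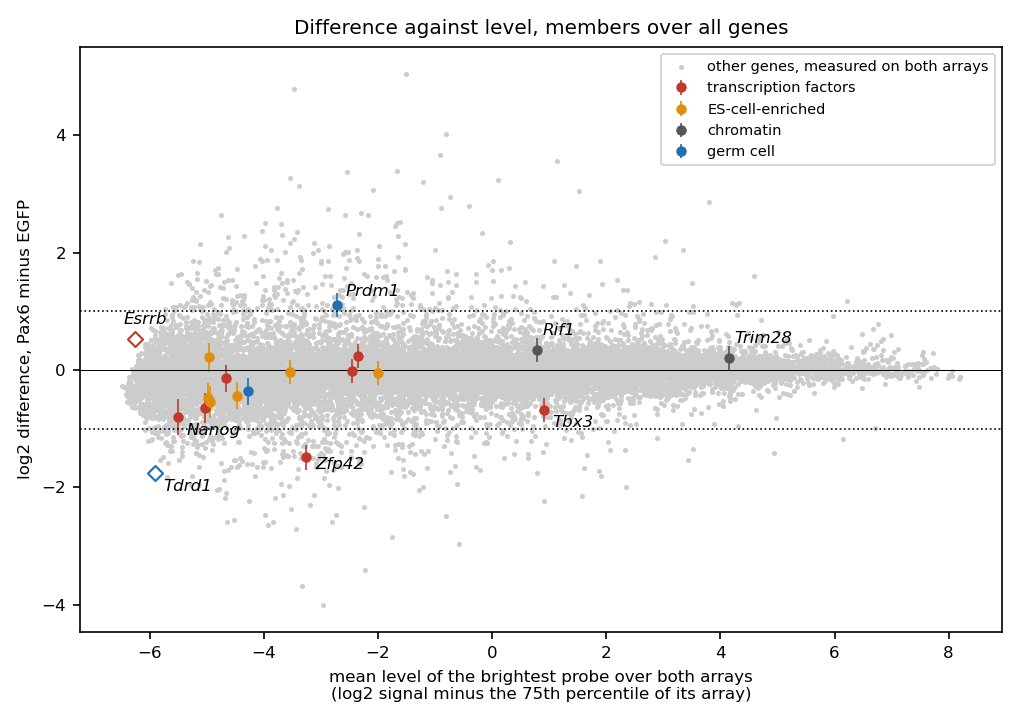
Log2 difference, Pax6 minus EGFP, against the mean level over both arrays (log2 signal minus the 75th percentile of its array) for all genes measured on both arrays (grey) and the 19 measured members (coloured by role, bars are the software's measurement error). Open diamonds are Esrrb and Tdrd1, plotted at their lower bounds; the dotted lines mark 2-fold, beyond which lie Zfp42 at -1.49, Tdrd1 at -1.76 and Prdm1 at 1.11.

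Zfp42, also called Rex1, encodes a zinc finger protein that is a classical marker of the pluripotent state, and it differed most among the members measured on both arrays. Its brighter probe, at chr8:42080746-42080805 of build mm7, read 150 in the EGFP and 62.1 in the Pax6 line. The Pax6 line was 2.81-fold lower, which is -1.49 ± 0.21 in log2. The other probe, at chr8:42080786-42080857, overlaps the first and so shares sequence with it. It read 80.7 and 30.6, a difference of -1.61 ± 0.23. The EGFP line was thus the high one by both probes. With normexp the probes differed by -0.81 and -0.72, the same direction but under 2-fold. Zfp42 is also expressed in trophoblast. Of 8 markers of extraembryonic tissue, Cdx2 and Elf5 were above background on neither array, none differed by 2-fold, and the summed signal was 1025 (EGFP array) and 1579 (Pax6 array). Most of that sum came from 1 gene, Tfap2a, at 785 and 1289, so it does not describe these markers as a class. The part of trophoblast in the Zfp42 difference was not tested.

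Nanog, the homeobox factor that secures the naive pluripotent state, was dim in both lines. Its probe at chr6:122750894-122750953 (mm7) read 25.0 in the EGFP and 16.6 in the Pax6 line, a difference of -0.81 ± 0.31 and less than 2-fold. The mouse genome holds Nanog pseudogenes, and the probe was not checked against them, so its source is uncertain. With normexp the difference was -0.20.

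Esrrb, an orphan nuclear receptor that can replace Nanog in sustaining self-renewal, was called in a single line. Both of its probes were above background in the Pax6 line and neither was in the EGFP line. The probe at chr12:84517502-84517561 (mm7) read 8.34 and 17.4, which places the Pax6 line at least 1.45-fold above the EGFP line. The probe at chr12:84523822-84523881 read 4.06 and 24.3, at least 2.03-fold higher. As measured, the differences were 0.84 ± 0.52 and 2.37 ± 0.97, with errors about as large as the bounds (0.53 and 1.02 in log2). These are lower bounds, set against the lowest signal called above background, and Esrrb was not counted as 2-fold because the first probe had the higher mean log2 signal. With normexp the bounds were 0.09 and 0.27 on the log2 scale.

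Among the other transcription factors, Tbx3 and the Sall genes gave clear signals and moderate differences. Tbx3, a T-box factor of the naive network that also acts in many embryonic tissues, read 2035 in the EGFP and 1473 in the Pax6 line. The difference was -0.68 ± 0.20, or 1.60-fold lower, and it lay between -0.69 and -0.60 under every scaling tried. A second Tbx3 probe was above background on neither array. Sall4, a zinc finger partner of Oct3/4 and Nanog, read 157 and 181, a difference of -0.01 ± 0.21 whose sign changed with the scaling. Sall1, its relative, which is also active in neural and kidney progenitors, read 155 and 212, a difference of 0.24 ± 0.21.

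The remaining factors were dim or not well above background. Tfcp2l1, a naive factor downstream of LIF signalling, was measured by 1 of its 4 probes, which read 32.6 and 24.2 (-0.65 ± 0.25), and its other 3 probes were above background on neither array. Utf1, a chromatin-associated factor of undifferentiated cells, read 35.5 and 37.4 (-0.14 ± 0.23). Nr0b1 (Dax1) and Nr5a2 (Lrh-1), nuclear receptors that regulate Oct3/4 and its targets, were above background on neither array.

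The reprogramming factors themselves give the setting for these values. The Pou5f1 probe, the gene of Oct3/4, read 7.99 on the EGFP array, not well above background, and 14.3 on the Pax6 array. The latter is below the brightest negative control spot of that array (24.6). The Sox2 probe read 79.2 and 307, a difference of 1.74 ± 0.21 or 3.34-fold higher. The Klf4 probe read 4846 and 12071 (1.10 ± 0.20, 2.15-fold higher) and the brightest Myc probe 25520 and 29158 (-0.02 ± 0.20). The files do not tell whether these probes read endogenous transcripts or those induced by doxycycline.

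Of the genes enriched in embryonic stem cells, none of the 6 measured ones reached 2-fold, where 4.85% of all genes did, so this count does not set them apart. Among all dim genes 4.51% were at least 2-fold lower and 3.93% higher. Of these 6 dim genes 5 were below 0, against 54.8% of all dim genes. Their median was -0.25, against -0.05 for all dim genes, and whether they differ was not tested. Dppa2, a chromatin protein that primes developmental promoters, read 74.2 in the EGFP and 84.0 in the Pax6 line (-0.04 ± 0.21). Its partner Dppa4, encoded beside it on chromosome 16, was above background on neither array, with signals of 2.17 and 2.00. So these paralogs, which act together in stem cells, were not both detected. Dppa5a, an RNA-binding protein gene, had 2 probes. The one placed on chromosome 9 read 218 and 244 (-0.05 ± 0.21), and the one placed on chromosome 5 read 32.1 and 34.7 (-0.10 ± 0.25). Dppa5a has related copies in the genome, and the probes were not checked against them, so the locus each probe reads is uncertain.

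The other genes of this group were dim. Tcl1, a co-activator of the kinase Akt, read 45.0 and 38.5 (-0.44 ± 0.23), and Fbxo15, an F-box gene used as an early reporter of reprogramming, 33.7 and 26.9 (-0.54 ± 0.27). Alpl, the gene of the alkaline phosphatase used to stain stem cell colonies and germ cells, read 32.1 and 26.6 (-0.48 ± 0.25). Tdh, a threonine catabolic enzyme on which mouse stem cells depend, was the only one above 0, at 25.3 and 34.2 (0.22 ± 0.25). Each of these 4 differences was under 3 times its measurement error and under 2-fold. Dppa3 (Stella), which protects DNA methylation in the early embryo, Lin28a, an RNA-binding inhibitor of let-7 maturation, and Eras, a stem cell Ras, were above background on neither array.

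Rif1 and Trim28, which stem cells need but which most dividing cells also express, were bright in both lines. Trim28, the KAP1 corepressor that recruits silencing to transposons, read 14049 in the EGFP and 18875 in the Pax6 line, a difference of 0.21 ± 0.20. Rif1, a regulator of replication timing and DNA repair, had 2 probes that disagreed in sign. The one with the higher mean read 1304 and 1920 (0.34 ± 0.20) and the other 1381 and 1440 (-0.15 ± 0.20), so no direction was read for it.

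Among the germ cell genes, 7 of 10 were above background on neither array. These were Dazl and Ddx4 (Vasa), RNA-binding proteins of germ cells, Mael and Piwil2 of the piRNA pathway that silences transposons, and Sycp1, Sycp2 and Sycp3, which build the synaptonemal complex of meiotic chromosomes. The brightest probes of these 7 genes read between 2.31 and 9.40 (EGFP) and between 2.10 and 9.82 (Pax6). All 3 probes of Sycp2 and both of Dazl were below the call. Over all genes, 9148 of 27665 were above background on neither array. Of the 5 germ cell genes with an E-box before the start, 4 were in this group, and the other was Tdrd1. Dazl and Sycp2, whose promoters held no E-box, were in this group too, so no link between motif and signal is read.

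Prdm1, also called Blimp1, was the only member that was higher in the Pax6 line by 2-fold or more. It encodes a transcriptional repressor that specifies primordial germ cells and also acts in B cells, skin and the retina. Its probe at chr10:44250799-44250858 (mm7) read 88.3 in the EGFP and 221 in the Pax6 line. The difference was 1.11 ± 0.21, or 2.16-fold, and lay between 0.77 and 1.19 over the settings tried, below 2-fold with normexp. The germ cell gene Nanos3, which keeps primordial germ cells alive, did not share this direction. Its signals were 49.9 and 45.0, a difference of -0.36 ± 0.23.

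Tdrd1, a Tudor protein of the piRNA pathway, was seen on the EGFP array only. Its probe at chr19:56785896-56785955 (mm7) read 27.2 there and 8.62 on the Pax6 array, not well above background. This makes it at least 3.39-fold lower on the Pax6 array, and the difference as measured was -1.87 ± 0.43. The other Tdrd1 probe, designed on a different transcript record, read 2.62 and 4.06 and was above background on neither array, so the difference rests on 1 dim probe. With normexp the bound was -0.37, under 2-fold.

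**Figure D3:**
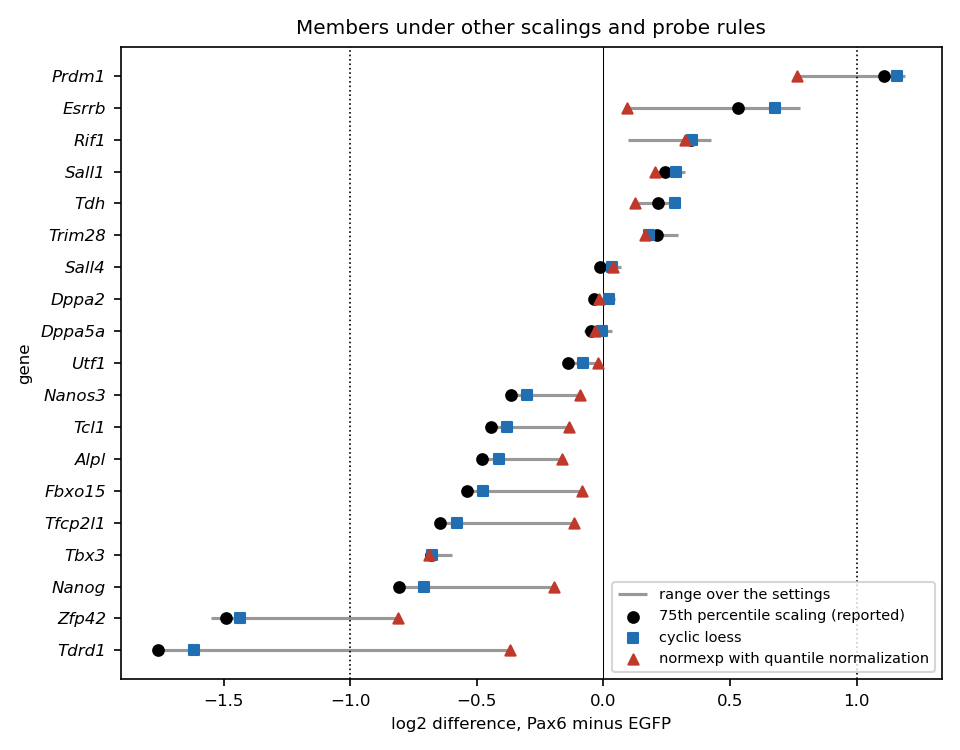
Log2 difference, Pax6 minus EGFP, of the 19 measured genes, ordered by the reported value (black), with cyclic loess (blue), normexp with quantile normalization (red) and the whole range over the 6 other scalings and probe rules (grey line). No gene reaches the dotted 2-fold lines with normexp, and Sall4, Dppa2 and Dppa5a cross 0.

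Other genes of pluripotency were taken from a list of 48 chosen by name. Of the 44 with a probe, 37 were above background on at least 1 array (84.1%, against 59.4% of the members and 66.9% of all genes). Fewer of them were dim than among the members, 16 of 37 against 16 of 19. Their median was -0.00, with 19 of 37 below 0. In the Pax6 line 1 was higher by at least 2-fold and 1 lower by as much, against 2.39% and 2.46% of all genes. The lower one was Mycn, the Myc family gene of neural progenitors, which read 60.2 and 21.1, a difference of -1.73 ± 0.29 or 3.32-fold lower. Its second probe was above background on neither array, and with normexp the difference was within 2-fold (-0.57). The median of the members lay below that of this list, and whether the lists differ was not tested.

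Other germ cell genes, 53 by name and all with a probe, included 31 above background on at least 1 array (58.5%, against 66.9% of all genes) and 22 on neither. Of the 31, 2 were at least 2-fold lower on the Pax6 array and 1 at least 2-fold higher, against 2.46% and 2.39% of all genes. Counts this small do not set the list apart. Below 0 were 20 of the 31 (64.5%, against 51.4% of all genes), and the median was -0.26. Most were dim: of 21 dim genes 14 were below 0 (66.7%), against 54.8% of all dim genes. Among all dim genes 4.51% were at least 2-fold lower and 3.93% higher. Stra8, the retinoic acid induced gene that starts meiosis, read 202 and 35.7, a difference of -2.71 ± 0.22 that stayed above 2-fold with normexp (-1.49). Rec8, the meiotic cohesin subunit, read 3788 and 1989 (-1.14 ± 0.20), its second probe differed by -1.28, and with normexp they differed by -1.17 and -1.08. Brdt, a testis bromodomain gene, read 29.2 and 68.6 (1.02 ± 0.28), and its second probe 28.9 and 65.7 (0.97), but with normexp they differed by only 0.27 and 0.34. Stra8 and Rec8 were thus higher in the EGFP line.

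The label of neural progenitor cells was checked against markers. Of 13 neural progenitor markers 11 were above background on both arrays and Hes5 and Olig2 on neither, with Nes and Slc1a3 at least 2-fold lower on the Pax6 array. The 13 summed to 105846 (EGFP array) and 129844 (Pax6 array), most of it from Vim at 99622 and 126293. Markers of other cell types were present too: the 7 fibroblast markers summed to 94663 and 62387, with 3 at least 2-fold higher and 3 lower. Most of that sum came from 1 gene, Col1a2, at 90871 and 46506, so it does not describe the fibroblast markers as a class. The 7 neuronal markers summed to 5734 and 6318, with 1 at least 2-fold higher (Syn1) and 1 lower (Snap25). The 5 oligodendrocyte markers summed to 5504 and 4845, with 1 at least 2-fold lower (Mbp). The 4 astrocyte markers summed to 416 and 793, with 1 at least 2-fold higher (Aqp4). Most of the astrocyte sum came from Aldh1l1, at 369 and 675, while Gfap and Aqp4 were above background on the Pax6 array only. The neuronal marker Dcx and the oligodendrocyte marker Mog were above background on neither array. The part of these cell types in the members' differences was not tested. In both arrays about the same share of spots was above background (64.6% and 67.2%) and no spot was saturated.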

How the data were processed

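Total RNA of the EGFP and the Pax6 line was labelled with Cy3 and hybridised to 1-colour Agilent whole mouse genome arrays (1 per line), per the labels' protocols. Per the file headers, the scans were read by Agilent Feature Extraction 10.7.3.1, whose processed signals are the intensity that the authors deposited. The software subtracts background and removes spatial trends on each array separately. The deposited flags (other) mark outliers and spots well above background (by 13 SDs, per the file headers). The deposited series table holds identical intensity values.

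Outlier spots (51 and 52) were left out, which kept 43283 spots of 41168 probes. Signals were put on the log2 scale and each array's 75th percentile (854 and 991) was subtracted. Probes were named by accession (22951), by an older name of a single gene (3109) or as on the array (15108). A gene took its brightest probe above background on at least 1 array. Where only 1 array measured a gene, its difference is a lower bound against the lowest signal above background. Mean signals under 300 were called dim. The error is the software's, with a multiplicative part of 0.1 of the signal. Coordinates of probes are those of build mm7, and exons are not stated because no annotation of that build was used. The members and lists were chosen with earlier results of these data known. Every member is named, and of the other 2 lists every gene at least 2-fold different, except 1 gene of the pluripotency list, higher on the Pax6 array, that is not reported here. Alternatives were median scaling, quantile normalization, normexp (offset 50) with quantile normalization (limma 3.58.1, R 4.3.3), other filters, the mean of a gene's probes, 2 stricter rules of size, the series table and, chosen after seeing the data, cyclic loess. The steps were tested on simulated data, with changes planted only in genes of clear signal on both arrays and 1 measured probe. That test did not cover the dimmest genes, genes with several measured probes or the bounds.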

Additional observations from a re-analysis of the deposited data

How the results depend on the processing

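Over the 6 other scalings and probe rules, 10 of the 19 genes were lower on the Pax6 array in each and 6 higher in each (Rif1 by its probe with the higher mean, or the mean of both), while Sall4, Dppa2 and Dppa5a changed sign around 0. Part of this agreement was fixed in advance. The series table holds identical values, and the mean of a gene's probes changes only genes with several measured probes. Esrrb and Tdrd1 are bounds that count in 1 direction only, so their sign could not change. The median of the 19 genes stayed below 0 under every alternative run, between -0.31 (no filter on dim probes, 32 genes) and -0.03 (normexp). Normexp with quantile normalization adds an offset of 50, more than the signals of many members, and brought each of the 19 genes nearer to 0 except Sall4 and Tbx3. With it 0 members were at least 2-fold lower and 0 higher, 280 of all genes differed, and 0 of the other pluripotency genes did. Requiring both arrays left 1 member lower and 1 other pluripotency gene, since bounds drop out. Without a filter, 2 members were higher (Sycp2 joined Prdm1) and 3 lower (Nr0b1 joined Zfp42 and Tdrd1), both additions from probes below background, and 2457 genes, 4 other pluripotency genes and 9 other germ cell genes differed. A rule of 3-fold left 1 member lower, 0 higher, 265 genes, 1 other pluripotency gene and 1 other germ cell gene. Asking also for more than 2 times the error left 1 other pluripotency gene. With 1 array per line nothing could be left out and no paired analysis was possible because there are no replicates. Signal over background limits the reading of dim members: their bounds and small differences cannot show that the lines were alike.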
